A study of Mus musculus with 53 samples.

Results

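SS 18, SS 19 and SS 23 are the mouse synovial sarcomas on these arrays in which the study cloned a retroviral integration inside *Dnm3*, and they were compared here with the other SS tumors across all genes. They are 3 of the 12 arrays titled SS plus a number and 3 of the 53 arrays in all. The tumors were picked by the number in the array title, and their integration was taken from the study because the labels do not give it. No array value was used to choose them. Every SS tumor, with or without an integration at *Dnm3*, grew under the skin of BALB/c nude mice, which lack T cells, from embryonic mesenchymal cells (eMCs) of BALB/c limb soft parts at late gestation. These cells had been transduced with the retrovirus pMYs-SS18-SSX1, which carries the human fusion gene *SS18-SSX1* under a viral promoter. Tumors of this kind hold several retroviral copies, so an integration at *Dnm3* is 1 of several in the same tumor, and whether every cell of a tumor carried it was not measured on the arrays. Beside them stand 13 SS214 tumors, made with *SS18-SSX1* and *miR-214*, as well as cultured eMCs, a normal tissue mix and the sarcoma lines SS40 and SS64. Ages of the mice were not given in the sources used here.

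*Dnm3* encodes a dynamin, a GTPase that pinches vesicles off membranes. On the opposite strand inside it lies *Dnm3os*, a long non-coding RNA of embryonic mesenchyme that is the precursor of *miR-199a-2* and *miR-214*. A retrovirus can raise genes near its site through the enhancer and promoter of its long terminal repeats, and can also disrupt the gene it enters. A mature microRNA pairs through its seed, bases 2 to 8, with messenger RNAs and lowers their level or their translation. The mature microRNAs of the locus are shown because the integrations lie at their host gene and a list of genes reduced by *miR-214* is used later. They were taken from RefSeq on GRCm38.p6, 5′ to 3′, with the seed in capitals. *miR-214* lies on the plus strand at chr1:162223438-162223459 (3p) and chr1:162223397-162223418 (5p), and *miR-199a-2* on the same strand at chr1:162217883-162217904 (3p) and chr1:162217844-162217866 (5p).
mmu-miR-214-3p: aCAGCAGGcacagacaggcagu
mmu-miR-214-5p: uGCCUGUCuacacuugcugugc
mmu-miR-199a-3p: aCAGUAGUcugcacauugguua
mmu-miR-199a-5p: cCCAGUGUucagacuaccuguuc
The 4 seeds differ from each other. The miR-199a pair is also encoded by *Mir199a-1* on chromosome 9 with the same letters, outside the *Dnm3* locus. The microRNAs themselves are not named on this array and are not analysed here. The study reports from RT-qPCR that *miR-214* was raised in the tumors with an integration, though in part of them only moderately. For the moderate rise it proposes as possible that only a minor part of the tumor carries the integration. The other microRNA of the locus is described there as raised in a single tumor with an integration. The study also reports these microRNAs as raised in several tumors without integrations.

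Before the groups were compared, the arrays were compared with each other. SS 24 and SS 29, both without an integration at *Dnm3*, were nearly the same array. The SD of their difference over the 37444 probe sets tested was 0.151 on the log2 scale, inside the 0.132 to 0.184 found between the 4 replicates of the tissue mix. The other 65 pairs of SS tumors had SDs of 0.322 to 0.631. The titles and the study's integration sites treat SS 24 and SS 29 as different tumors. Since their arrays differed no more than the replicates of the tissue mix, their mean entered as 1 sample. This leaves 3 tumors with an integration at *Dnm3* and 8 other SS tumor samples. Results with both kept apart and with both left out are given where they bear on a count. Median intensities were 24.5 to 25.6 in the 3 tumors and 22.6 to 25.9 in the 8 others (exact permutation test, two-sided, p = 0.703). For *Gapdh*, the signal at the 3′ end over that at the 5′ end grows as RNA degrades. Its log2 value was 1.34, 1.07 and 1.09 in SS 18, SS 19 and SS 23, against 0.346 to 1.43 (median 0.729) in the others. The means were 1.17 ± 0.15 (SD, n = 3) and 0.79 ± 0.35 (SD, n = 8), with an exact permutation p of 0.127. The part of RNA quality in the gene results was examined with this ratio as a covariate.

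*Dnm3os* was high in every SS tumor, and the 3 tumors with an integration did not stand apart from the others. It has 2 probe sets. On the brighter, the log2 intensities were 10.40 in SS 18, 8.91 in SS 19 and 9.68 in SS 23, against 9.43 to 10.59 (median 9.74) in the others. SS 19 was thus the lowest of all SS tumors, and the highest was SS 20, which has no integration at *Dnm3*. The difference was -0.19 (SE 0.29), with an exact permutation p of 0.582 over all ways of choosing 3 of 11 samples and 0.609 over those of choosing 3 of 12 arrays. The smallest p these designs allow is 0.00606 and 0.00455.

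On the second *Dnm3os* probe set, SS 18 was again high at 10.07, SS 19 was at 8.57 and SS 23 at 7.85. The 9 other arrays lay between 6.86 and 9.91 (median 7.68), again with SS 20 highest. The difference was 0.73 (SE 0.60), exact permutation p = 0.345. The probe sets therefore gave differences of opposite sign, neither beyond the spread between tumors, and they placed SS 19 and SS 23 in opposite order. The SD on this probe set was 1.13 in the 3 tumors and 1.01 in the 8 others. With this spread and 3 tumors in 1 group, a difference of the size found, or a larger one, could go undetected. In the other groups the same probe set had 9.23 to 10.22 in the 13 SS214 tumors, 4.68 to 4.94 in eMCs with *SS18-SSX1*, 4.53 to 4.75 in eMCs with the empty vector and 4.27 to 4.44 in the tissue mix. The brighter probe set had 7.27 to 10.28 in the SS214 tumors, a difference of -0.39 from the other SS tumors (limma adjusted p = 0.273), 4.66 to 5.23 in eMCs and 4.10 to 4.37 in the tissue mix. All 3 tumors with an integration thus lay far above the cells from which such tumors start, as did all 9 SS arrays without one. The cultured sarcoma lines with the negative control were also low on the second probe set, at 4.66 to 5.255 in SS40 and 4.12 to 4.61 in SS64. On the brighter probe set they had 3.74 to 4.27 and 3.47 to 3.76.

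**Figure D1:**
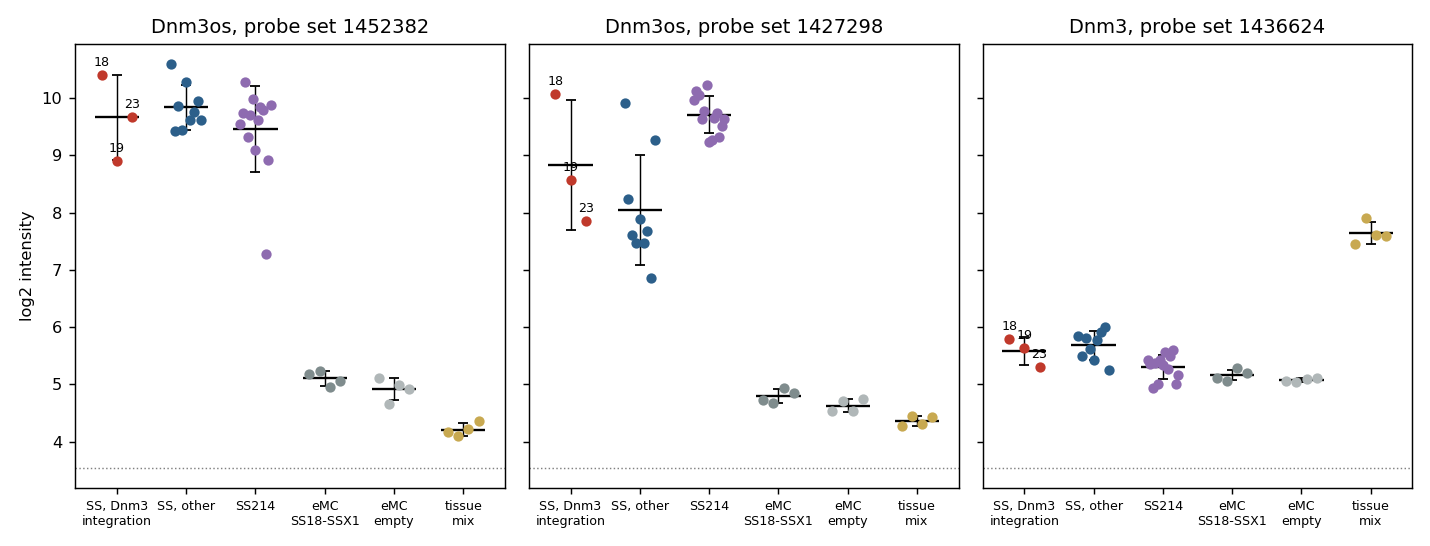
Log2 intensity (vertical axis) of both *Dnm3os* probe sets and of the brightest *Dnm3* probe set by group, 1 point an array, with the mean as a bar, the SD as an error bar and the filter floor as a dotted line. On the brighter *Dnm3os* probe set SS 18 (10.40) and SS 23 (9.68) lie inside the range of the 9 other SS arrays (9.43 to 10.59) and SS 19 (8.91) lies below it. *Dnm3* lies between 5.25 and 5.99 in all of these arrays.

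*Dnm3* itself was weakly expressed. Its brightest probe set read 5.79 in SS 18, 5.63 in SS 19 and 5.31 in SS 23, against 5.25 to 5.99 (median 5.70) in the others, so the groups overlapped. The difference was -0.09 (SE 0.18, exact permutation p = 0.630). A further 3 probe sets of *Dnm3* gave differences of 0.16, -0.11 and 0.02 with exact permutation p values of 0.255, 0.376 and 0.915. The last of these did not pass the filter on low values, set at a log2 intensity of 3.55 in at least 3 samples. In the tissue mix, the brightest probe set had 7.46 to 7.91, above every tumor. Where a probe set lies relative to an integration is not given in the files used here, so a truncated *Dnm3* transcript was not tested.

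The genes around the locus did not separate the tumors either. Of the 10 annotated genes on each side of *Dnm3* (20 in all), 9 were tested, and none had all 3 tumors outside the range of the others. Over all genes the shares were 0.834% higher and 0.795% lower, so finding none among 9 tells little. Their differences ran from -0.16 for *Prrc2c* to 0.33 for *Pigc*, an enzyme of glycosylphosphatidylinositol anchor synthesis. *Pigc* read 9.19, 8.98 and 8.82 in SS 18, SS 19 and SS 23, against 8.40 to 9.20 (median 8.60) in the others. The nearest tested genes after *Dnm3*, *Eef1aknmt*, a lysine methyltransferase of elongation factor 1A, and *Vamp4*, a vesicle fusion protein, differed by 0.27 and -0.08. *Suco* and *Prrc2c* are broadly expressed, while *Fasl*, the ligand of the death receptor Fas, was near the floor in every SS tumor (3.37 to 3.67).

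*Twist1* is the bHLH factor known in the mouse to act on the *Dnm3os* promoter, so its level and those of related factors were read beside the locus. The *Dnm3os* promoter, 250 bases before to 50 after the start of the gene on the plus strand, is shown because that RNA is the precursor of both microRNAs. Capitals mark the E-box motif CANNTG, which reads the same on both strands and was searched with overlaps allowed.
Dnm3os promoter, chr1:162217373-162217672, GRCm38.p6: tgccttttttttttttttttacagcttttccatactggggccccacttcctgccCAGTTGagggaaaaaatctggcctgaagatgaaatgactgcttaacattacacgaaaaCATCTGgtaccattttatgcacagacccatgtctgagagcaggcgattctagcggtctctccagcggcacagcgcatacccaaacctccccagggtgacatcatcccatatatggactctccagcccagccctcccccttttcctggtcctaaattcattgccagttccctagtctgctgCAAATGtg
It held 3 matches, 196 and 138 bases before and 42 bases after the start. The motif is common, since 72.3% of all 32851 RefSeq promoters of this length hold at least 1. *Twist1* itself read 9.10, 9.93 and 9.44 in SS 18, SS 19 and SS 23, against 9.06 to 9.90 (median 9.45) in the others, and its difference was -0.00405 (SE 0.19). Of the 13 tested genes of the list of *Dnm3os* regulators and early mesenchyme factors, none had groups that did not overlap. Over all genes the shares were 0.834% higher and 0.795% lower, so this tells little for 13 genes. The median difference was -0.00405, that of *Twist1*, beside 0.01 over all genes. *Tcf12*, a bHLH partner of Twist proteins, had the lowest unadjusted p of the list. It read 10.71 in SS 18 and 10.65 in SS 23, and SS 19 lay just above the lowest of the others, which had 10.96 to 11.84 (median 11.32), a difference of -0.54 (SE 0.16, limma adjusted p = 0.735). *Meox1*, a somite homeobox gene, differed by 0.43 (SE 0.17, limma adjusted p = 0.743) and *Tcf4*, another E-protein, by -0.63 (SE 0.30, limma adjusted p = 0.761).

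Across all genes, none differed between the groups after adjustment. Of 15339 genes tested with limma, 0 (0%) had an adjusted p under 0.05, and the lowest adjusted p of any probe set was 0.141. At an unadjusted p under 0.05, 815 genes (5.31%) were higher and 393 (2.56%) were lower, 1208 in all. The methods' t-test at a fold change over 2 and an unadjusted p under 0.05 gave 95 higher and 14 lower genes, and 0 after Benjamini-Hochberg adjustment. With SS 24 and SS 29 kept apart as 9 other tumors the lowest adjusted p was 0.0526, again with 0 genes called. With the *Gapdh* ratio as a covariate the genes at an unadjusted p under 0.05 numbered 543.

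A count that needs no model of the spread was the number of genes for which the groups did not overlap. All 3 tumors with an integration were higher than all 8 others for 128 genes (0.834%) and lower for 122 genes (0.795%). This near balance depended on the scaling, since quantile normalization gave 99 higher and 155 lower genes, of which 78 and 104 were among those counted here. Averaging each gene over its probe sets gave 134 and 94. The differences of the higher genes ran from 0.14 to 3.55 (median 0.43), 11 of them over 1, and those of the lower genes from -1.23 to -0.05 (median -0.31), 4 of them beyond -1. With SS 24 and SS 29 kept apart the counts were 122 and 117, and without both 142 and 125. The other tumor closest to the 3 was SS 20 or SS 22 for 69 of the 128 higher and 60 of the 122 lower genes. The genes named next are the 12 with the largest difference in each direction, and because they were taken for their separation, their values are a description.

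**Figure D2:**
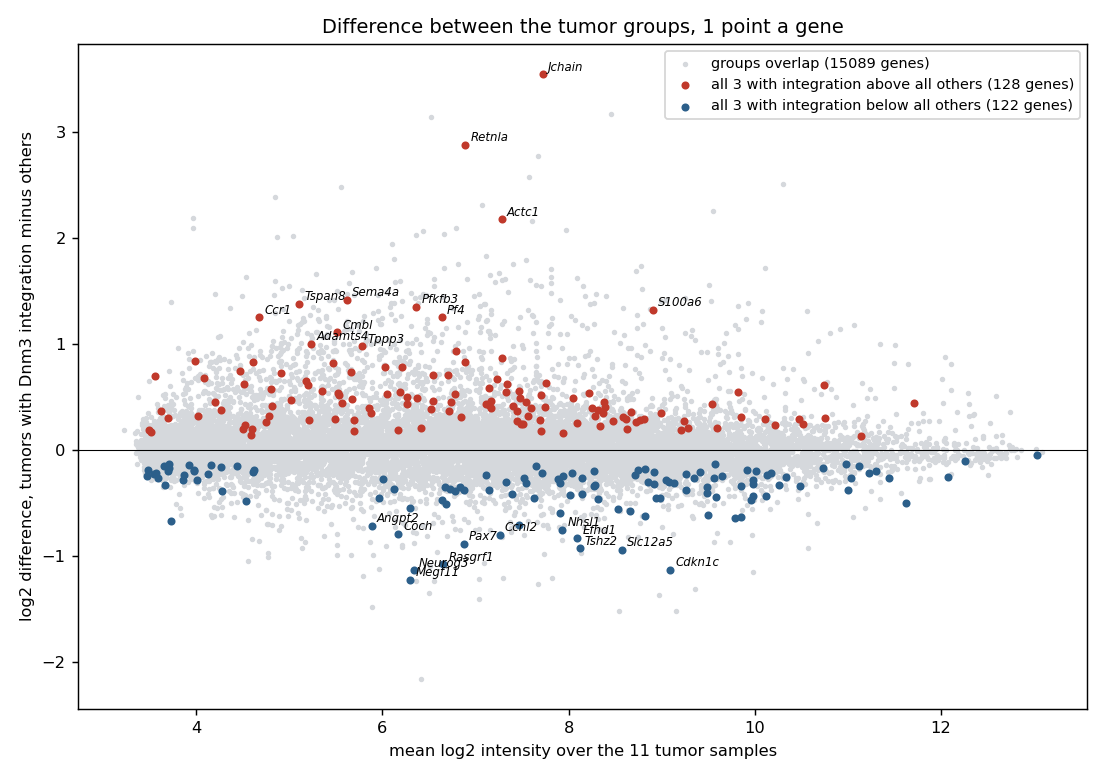
Log2 difference between tumors with an integration at *Dnm3* and the others (vertical axis) against the mean log2 intensity (horizontal axis), 1 point for each of 15339 genes. Red points mark the 128 genes with all 3 tumors above the others and blue points the 122 with all 3 below, and the large differences on the upper side include many grey genes whose groups overlap.

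The 12 genes with the largest differences on the higher side are of several cell types. *Jchain*, which encodes the joining chain of polymeric antibodies in B and plasma cells, read 9.95 in SS 18, 9.76 in SS 19 and 11.19 in SS 23, against 3.94 to 9.76 (median 7.22) in the others. Its difference was 3.55 (SE 1.07, limma adjusted p = 0.735), and SS 22 at 9.76 lay directly below SS 19. *Retnla*, a secreted product of alternatively activated macrophages and eosinophils, read 10.52, 8.34 and 8.08 in SS 18, SS 19 and SS 23, against 5.19 to 7.64 (median 5.53), a difference of 2.88 (SE 0.64). *Ccr1*, a chemokine receptor of myeloid cells, read 5.59, 5.32 and 5.86, against 3.76 to 4.88 (median 4.33). Its difference of 1.25 (SE 0.21) had the lowest adjusted p among these genes, 0.268 with limma. *Pf4*, a chemokine of platelets and macrophages, read 7.31, 7.19 and 8.14, against 5.18 to 7.13, a difference of 1.25 (SE 0.40). *Sema4a*, a semaphorin of immune cells, differed by 1.42 (SE 0.33), and *S100a6*, a calcium-binding protein of many cell types, by 1.33 (SE 0.43). All of these were highest in SS 23 or SS 18.

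Other genes of the higher side were *Actc1*, the actin of heart and developing muscle, at 8.41, 9.75 and 8.43 in SS 18, SS 19 and SS 23, against 4.80 to 8.11 (median 6.63) in the others. The difference was 2.18 (SE 0.64). *Pfkfb3*, which makes the activator of the glycolytic enzyme phosphofructokinase, was even among the 3 tumors at 7.42, 7.14 and 7.46, against 4.85 to 6.85 (median 6.06), a difference of 1.35 (SE 0.39). *Tspan8*, a tetraspanin of epithelia, differed by 1.38 (SE 0.36), *Cmbl*, a hydrolase, by 1.11 (SE 0.43) and *Tppp3*, a tubulin-binding protein, by 0.98 (SE 0.29). *Adamts4*, a protease of cartilage proteoglycan, had the widest gap between the groups of any gene, 0.53. It read 5.88, 5.88 and 6.12 in the 3 tumors, against 4.12 to 5.34 (median 5.12), a difference of 1.00 (SE 0.25).

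On the lower side the differences were smaller. *Cdkn1c*, an imprinted inhibitor of cyclin-dependent kinases, read 7.96, 8.59 and 8.25 in SS 18, SS 19 and SS 23, against 8.95 to 10.18 (median 9.27) in the others, a difference of -1.13 (SE 0.25, limma adjusted p = 0.735). *Pax7*, the paired box factor of muscle stem cells and dorsal neural tube, read 5.98, 6.25 and 6.45, against 6.53 to 7.69 (median 7.18), a difference of -0.88 (SE 0.23). *Neurog3*, a bHLH factor of endocrine pancreas, read 5.397, 5.889 and 5.240, against 5.96 to 7.46 (median 6.66), a difference of -1.14 (SE 0.29). In each of these the 3 tumors were below a range in which SS 30 was the highest. *Megf11*, an adhesion receptor of retinal neurons, had the largest difference, -1.23 (SE 0.33), with SS 18 the lowest at 4.58 and SS 19 at 5.91 just under the lowest other tumor, SS 20, at 5.94. *Rasgrf1*, an exchange factor for Ras, differed by -1.08 (SE 0.29), *Slc12a5*, the chloride exporter of neurons, by -0.94 (SE 0.25), and *Tshz2*, a zinc finger factor, by -0.93 (SE 0.27). *Efhd1*, a calcium-binding protein of mitochondria, *Ccnl2*, a cyclin of splicing speckles, *Coch*, a matrix protein of the inner ear, and *Nhsl1* differed by -0.75 to -0.83. *Angpt2*, a ligand of the endothelial receptor Tie2, differed by -0.71 (SE 0.39), with an unadjusted p of 0.0886 in the fit across all genes. It read 5.26 to 5.47 in the 3 tumors, and the others spread from 5.49 to 7.63.

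**Figure D3:**
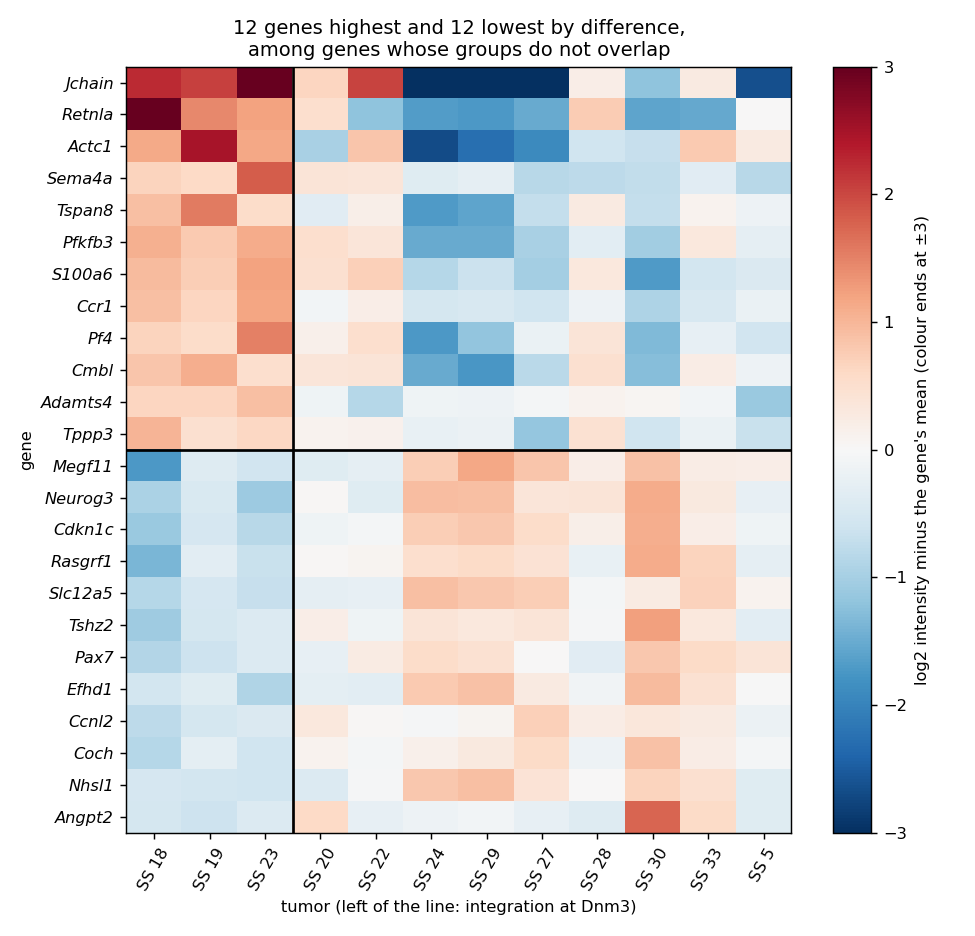
Log2 intensity minus the gene's mean (colour, ending at ±3) for the 12 highest and 12 lowest genes by difference (rows) in the 12 SS tumors (columns), with SS 18, SS 19 and SS 23 left of the vertical line. SS 20 and SS 22 come closest to the 3 tumors in many rows, and SS 24 and SS 29 have nearly the same colours throughout.

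Lists of genes were then read for their counts and medians beside those of all genes. The macrophage list was the one with the most members at an unadjusted p under 0.05, 14 of 18, beside 5.31% of all genes in that direction. All 18 had a positive difference (median 1.12). None had groups that did not overlap. Over all genes the share was 0.834% on the higher side, so finding none among 18 tells little. *Adgre1*, a surface receptor that marks mouse macrophages, read 6.64, 6.47 and 7.63 in SS 18, SS 19 and SS 23, against 4.96 to 6.63 (median 5.45) in the others, a difference of 1.32 (SE 0.34, limma adjusted p = 0.735). *C1qb*, a chain of complement C1q, differed by 1.55 (SE 0.48) and *Mrc1*, the mannose receptor, by 1.61 (SE 0.54). The highest of the others was SS 22 in most genes of the list. Summed over the list, intensities were 4751, 4391 and 10410 in SS 18, SS 19 and SS 23, against 1301 to 6841 (median 2479), so SS 22 exceeded SS 18 and SS 19. Without SS 23 the members at an unadjusted p under 0.05 numbered 3, with a median of 0.799, and with the *Gapdh* ratio as a covariate they numbered 6, with a median of 1.03. More macrophages and more RNA of these genes per cell cannot be told apart in bulk tumors.

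Markers of other cells were uneven across the 3 tumors. Of 13 tested B cell, T cell and NK cell genes all had a positive difference (median 0.94). Groups did not overlap for *Jchain* alone, beside 0.834% of all genes on the higher side. The list's summed intensity was 1242 to 4215 in the 3 tumors, against 246 to 2233. The defining markers *Cd79a* of B cells and *Cd3e* of T cells read 4.65 to 4.97 and 5.98 to 6.31 in the 3 tumors, inside the 3.92 to 5.06 and 5.48 to 7.03 of the others. The neutrophil marker *S100a8* was 4.62 in SS 18, 8.88 in SS 19 and 10.74 in SS 23, against 3.53 to 9.65. The adipocyte list had a median difference of 1.13 with 11 of 11 differences positive, and its sums of 5059 to 14100 lay inside the 924 to 14570 of the others. The skeletal muscle list, 17 of 20 positive (median 0.52), summed to 59700 to 89300, against 21930 to 86930. Its defining marker *Ckm*, muscle creatine kinase, read 12.84, 12.82 and 12.38, against 10.20 to 12.67. The part of blood and muscle tissue in the differences of *Jchain*, *Retnla* and *Actc1* was not tested.

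Genes of eosinophils and mucosal mast cells were singled out after their values were seen, and they differed among the 3 tumors. *Rnase2a*, an eosinophil-associated ribonuclease, read 7.65 in SS 18, 5.75 in SS 19 and 3.26 in SS 23, against 3.07 to 4.31 on the other arrays. *Mcpt1*, a protease of mucosal mast cells, read 6.28, 6.30 and 3.89, against 2.93 to 4.39. Both were high in SS 18 and SS 19 and inside the range of the others in SS 23. For both genes the range of the others reached below the filter floor of 3.55. *Ear3*, another eosinophil ribonuclease, read 7.33, 5.49 and 6.94, and among the others SS 22 reached 6.09, above SS 19. When SS 23 was left out, *Mcpt1* and *Rnase2a* were the only genes called by limma at an adjusted p under 0.05, both higher in SS 18 and SS 19 (lowest adjusted p = 0.0349). Of 12 tested genes of the mast cell list, none had groups that did not overlap, beside 0.834% higher and 0.795% lower over all genes. At an unadjusted p under 0.05, 2 were higher, beside 5.31% of all genes. Its defining marker *Cpa3* read 8.65, 9.43 and 8.10 in SS 18, SS 19 and SS 23, against 6.85 to 9.42, a difference of 0.30 (SE 0.47).

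The chemokine genes that the study lists for SS214 tumors were read in the tumors with an integration at *Dnm3*. The study chose this list on these arrays with the SS tumors as controls, so it is not independent evidence of a direction. Of 9 genes tested (*Spp1* was not), 9 had a positive difference (median 0.96), 7 at an unadjusted p under 0.05 (beside 5.31% of all genes). Groups did not overlap for *Pf4* alone, beside 0.834% of all genes on the higher side. *Ccl6*, a chemokine of myeloid cells, read 8.78, 7.53 and 8.12 in SS 18, SS 19 and SS 23, against 5.16 to 8.15 (median 5.73), a difference of 2.04 (SE 0.58, limma adjusted p = 0.735). Its neighbour *Ccl9* read 8.46, 7.18 and 7.87, against 4.73 to 7.53 (median 5.37), a difference of 2.03 (SE 0.56). *Ccl2* and *Ccl7*, which attract monocytes, differed by 0.66 (SE 0.18) and 0.96 (SE 0.22). *Cxcl9*, an interferon-induced chemokine for lymphocytes, had the largest difference, 3.14 (SE 1.02), with 7.83, 8.67 and 9.94 in the 3 tumors, but SS 22 stood at 9.51. *Cxcl15*, a chemokine that attracts neutrophils in the mouse, was 5.07 in SS 18, 3.92 in SS 19 and 4.04 in SS 23, against 3.86 to 4.39 (median 4.05), a difference of 0.27 (SE 0.21). Only SS 18 lay above all others for it.

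The SS214 tumors were set against the same other SS tumors, and since both comparisons share those 8 samples, their values are only placed side by side. Many genes were called there with limma at an adjusted p under 0.05, 2964 higher (19.3%) and 2273 lower (14.8%). RNA quality moved with this comparison, since the log2 *Gapdh* ratio was -0.0449 to 0.116 in 12 of the 13 SS214 tumors and 0.483 in the other one, against 0.326 to 1.43 on the arrays of the other SS tumors. Its part in the SS214 differences was not tested. For *Ccl6* the differences were 2.04 in tumors with an integration at *Dnm3* and 2.61 in SS214 tumors. For *Ccl9* they were 2.03 and 2.58, for *Ccl2* 0.66 and 1.40, and for *Pf4* 1.25 and 1.45. *Cxcl15* was 0.27 in tumors with an integration and 1.98 in SS214 tumors, where its limma adjusted p was 0.0425. *Retnla* had differences of 2.88 and 2.18, *Ccr1* 1.25 and 1.56, and *Jchain* 3.55 and 1.65. On the lower side *Pax7* had -0.88 and -1.63, *Megf11* -1.23 and -1.46, *Cdkn1c* -1.13 and -0.55, and *Neurog3* -1.14 and -0.05. A direct test between tumors with an integration and SS214 tumors was not made.

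**Figure D4:**
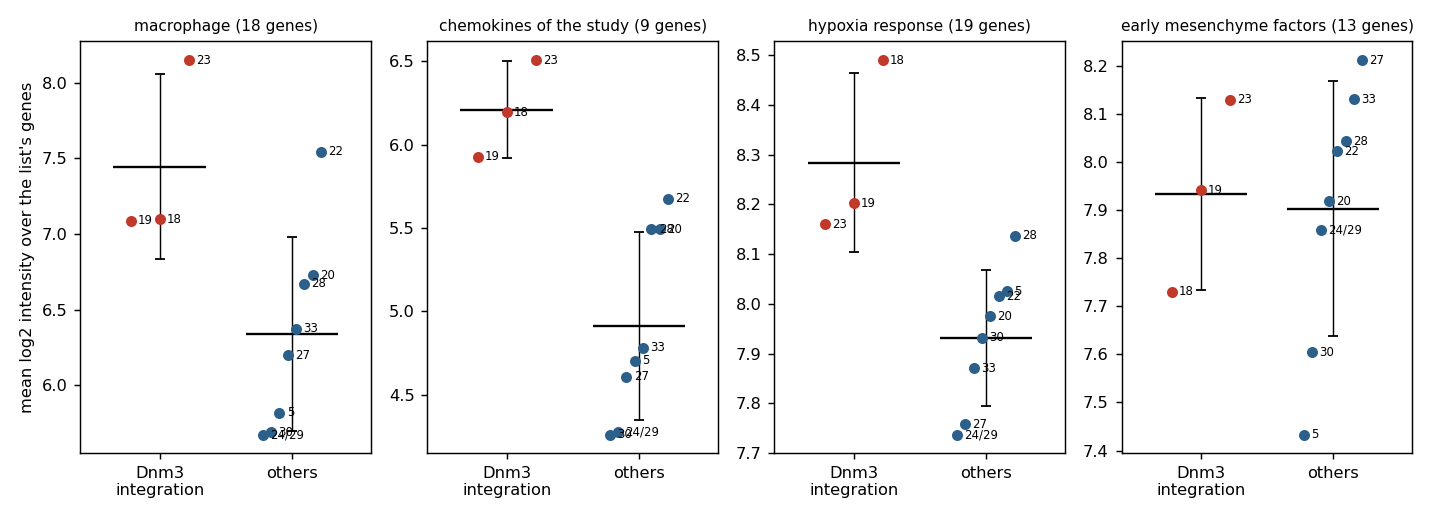
Mean log2 intensity over the tested genes of 4 lists (vertical axes, each with its own range) in the 3 tumors with an integration at *Dnm3* and the 8 other SS tumor samples, 1 labelled point a tumor, with the mean as a bar and the SD as an error bar. On this measure the 3 tumors lie above all others for the chemokine and hypoxia lists. SS 22 exceeds SS 18 and SS 19 for the macrophage list, and the groups overlap for early mesenchyme factors. As summed intensity, SS 22 (1149) exceeds SS 19 (1012) for the chemokine list. The hypoxia sums are 11740 to 16010 in the 3 tumors and 9319 to 11670 in the others.

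The hypoxia response list had 3 members whose groups did not overlap, beside 0.834% of all genes in that direction. These were *Pfkfb3*, *Ldha*, the muscle subunit of lactate dehydrogenase, and *Ndrg1*, all higher in the 3 tumors. *Ldha* read 12.18, 12.10 and 11.80 in SS 18, SS 19 and SS 23, against 11.34 to 11.77 (median 11.60), a difference of 0.44 (SE 0.10, limma adjusted p = 0.735). Of 19 members tested, 9 were at an unadjusted p under 0.05, all higher, beside 5.31% of all genes. A positive difference was found for 14, and the median was 0.42, beside 0.01 over all genes. *Car9*, a carbonic anhydrase induced by hypoxia, was 7.33 in SS 18, 5.83 in SS 19 and 5.43 in SS 23, against 4.68 to 6.31 in the others. *Bnip3*, a mitophagy receptor, read 11.21, 10.32 and 10.19, against 9.46 to 10.33, and *P4ha2*, a collagen hydroxylase, 7.24, 6.51 and 6.32, against 5.34 to 6.73. SS 18 was the highest of all tumors for each of these 3 genes. *Vegfa* and *Adm*, which are also induced by hypoxia, had differences of -0.11 (SE 0.13) and -0.73 (SE 0.39). At an unadjusted p under 0.05 there were 5 members without SS 18 (median 0.25), and 4 with the *Gapdh* ratio as a covariate (median 0.33).

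Lists of genes of the tumor cells had medians from -0.11 to 0.13, beside 0.01 over all genes. Of 24 genes linked to SS18-SSX1 tumors, some of which the study chose on these arrays, 7 had a positive difference and 5 were lower at an unadjusted p under 0.05, beside 2.56% of all genes (median -0.11). *Tnfrsf19*, a receptor of mesenchymal progenitors, differed by -0.93, *Fgfr3* by -0.75, *Pax3* by -0.52 and *Epha4* by -0.50. Of 19 Wnt targets 3 were lower at an unadjusted p under 0.05. *Bmp4* had groups that did not overlap (-0.47), beside 0.795% of all genes on the lower side. *Lef1*, a transcription factor of the Wnt pathway, differed by -0.55 (unadjusted p = 0.0305). In the cell cycle list 22 of 29 genes had a positive difference (median 0.13), and 0 reached an unadjusted p under 0.05 in either direction. Of 15 microRNA processing genes 1 reached it, *Tnrc6c*, a partner of Argonaute proteins, at -0.32. In the dynamin family, *Bin1*, a membrane-bending partner of dynamins, differed by 0.81 and *Mfn2*, a mitofusin, by 0.37, and the median over 14 genes was 0.09.

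Genes reported or found to respond to *miR-214* were not lower as a group in the tumors with an integration. Levels of *miR-214* were not analysed here, so this does not show whether they differed between the groups. In the sarcoma lines SS40 and SS64 transfected with *miR-214*, 62 of 15281 genes (0.406%) were called lower than with the negative control in both lines (limma, adjusted p under 0.05, n = 4 each). All 62 were measured in the tumors. Of these, 14 (22.6%) had a negative difference between tumors with an integration and the others, beside 47.5% of all genes, and the median was 0.15, beside 0.01. In single tumors the median deviation from the mean of the others was 0.10 in SS 18, 0.16 in SS 19 and 0.21 in SS 23, against -0.04 to 0.08 in the 8 others. Groups did not overlap for 3 higher genes, *Rab11fip5*, *Pmp22* and *Gpd1l*, and for 1 lower gene, *Arhgef12*, at -0.24. At an unadjusted p under 0.05, 11 of the 62 were higher and 2 were lower, beside 5.31% and 2.56% of all genes. The shares of all genes with groups that do not overlap were 0.834% and 0.795%. The higher ones include *Lgals3* (1.62), a galectin abundant in macrophages, and the chemokines *Ccl7* (0.96) and *Ccl2* (0.66), which are also on the list of chemokines above. The labels give replicate numbers but no pairing, and the fit that gave the 62 genes used none. Deviations of arrays with the same replicate number correlated at 0.221 to 0.344 in SS64 and at -0.28 to 0.459 in SS40. With the replicate block in both lines 21 genes were lower in both, 20 of them among the 62, with the same median in the tumors of 0.15.

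The candidate targets of *miR-214* that the study examined were split between the directions. Of 10 tested, 5 had a positive difference (median 0.06). Groups did not overlap for *Nomo1*, a membrane protein of the endoplasmic reticulum, and for *Fbxo3*, an F-box subunit of a ubiquitin ligase. Over all genes the shares were 0.834% higher and 0.795% lower, and single genes of short lists tell little about a list. *Nomo1* read 8.72, 8.69 and 8.62 in SS 18, SS 19 and SS 23, against 8.10 to 8.59, and differed by 0.28 (SE 0.12, limma adjusted p = 0.744). *Fbxo3* read 9.27, 9.29 and 9.23, against 9.34 to 10.09, and differed by -0.44 (SE 0.17, limma adjusted p = 0.735). *Timp2*, an inhibitor of matrix metalloproteinases, differed by 0.19 and *Ezh1*, a histone methyltransferase of Polycomb, by 0.24. *Foxo4* differed by 0.21, *Lats2*, a kinase of the Hippo pathway, by -0.30, and *Plagl2*, *Chfr*, *Cbl* and *Tpp1* by -0.10 to 0.12. Of 19 other genes reported as *miR-214* targets, 2 were lower at an unadjusted p under 0.05, beside 2.56% of all genes, and the median was 0.00. Among the 2 was *Bcl2l2*, an inhibitor of apoptosis, whose groups did not overlap (-0.32). Of 19 reported targets of *miR-199a* the median was -0.08, with *Map3k11*, a kinase of the JNK pathway, higher in all 3 tumors (0.45).

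The other integrations of the same tumors differ from tumor to tumor. Each gene was therefore ranked by the tumor that carries the integration, from 1 for the highest to 11 for the lowest of the 11 samples. Leaving out *Dnm3*, 43 genes lay at integrations of the 3 tumors and 36 were tested. The carrying tumor ranked first for 3 of the 36 and last for 3 others, and its median rank was 6. All 3 first ranks were in SS 23, which was the highest tumor for 10.4% of all genes. They were *Lrrc8c*, a volume-regulated channel subunit, *Mtss1*, an actin and membrane-binding protein, and *Sys1*, a Golgi protein, above the next tumor by 0.06, 0.05 and 0.00. In SS 19, *Mmp14*, a membrane-bound matrix metalloproteinase, *Mcc* and *Setd1b* ranked last, at 0.38, 0.40 and 0.29 below the mean of the other tumors (differences of -0.38, -0.40 and -0.29). They are 3 of the 18 genes tested for SS 19, which was the lowest tumor for 5.53% of all genes. *Creb5*, a transcription factor of the CREB family with an intronic integration in SS 18, was the only gene more than 1 above the mean of the other tumors. It read 8.41 in SS 18, against 6.64 to 8.52 in the rest, a difference of 1.03, and ranked second to SS 5. SS 22, in which the study also lists an integration at *Creb5*, read 7.196.

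Over all genes the 3 tumors were on average more alike than other pairs of tumors, though several other pairs were closer. After each gene's mean was removed, the correlation across probe sets was 0.094 between SS 18 and SS 19, 0.186 between SS 18 and SS 23 and 0.107 between SS 19 and SS 23, with a mean of 0.129. The 28 pairs among the 8 others had correlations from -0.568 to 0.582 (mean -0.077) and the 24 pairs between the groups from -0.595 to 0.447 (mean -0.152). Probe sets are not independent replicates, and these values are a description. The tumor most like SS 23 was SS 22 (0.447), and SS 20 was more like SS 18 (0.205) and SS 23 (0.285) than SS 19 was. The first principal component, with 34.5% of the variance, had SS 23 (55.7), SS 22 (49.3), SS 18 (27.9), SS 20 (23.2), SS 19 (11.2) and SS 33 (4.63) on one side and SS 30 (-55.2) and the mean of SS 24 and SS 29 (-50.8) at the other end. Its leading genes on the side of SS 23 were *Iigp1*, *Jchain*, *Cxcl9*, *Cxcl13* and *Tgtp1*, genes of interferon response and lymphoid tissue, and at the other end *Pcp4*, *Olig1*, *Rbfox3*, *Kcnd3* and *Nefm*, genes of neural cells.

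**Figure D5:**
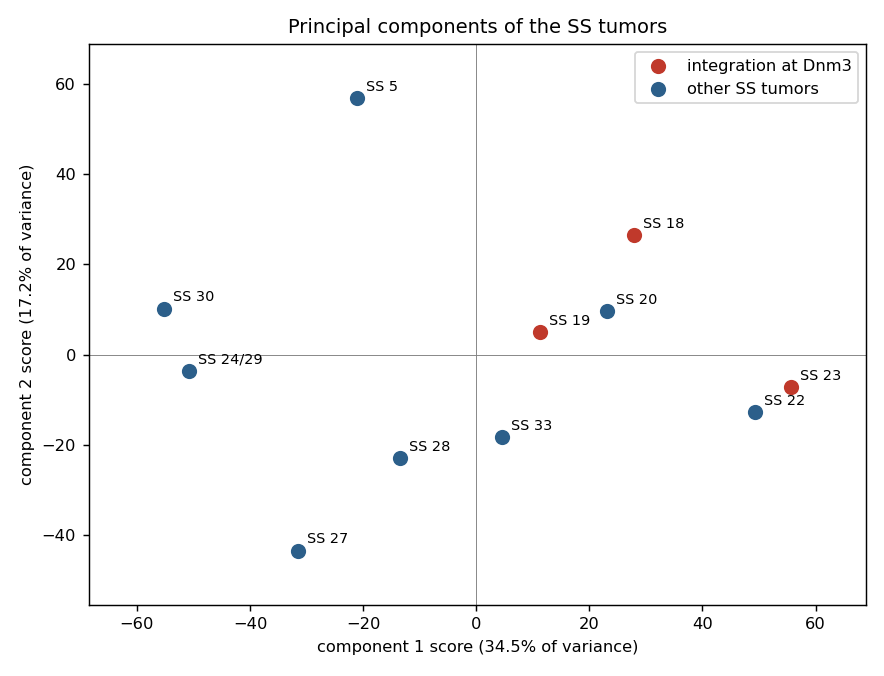
Scores of the 11 SS tumor samples on the first (horizontal) and second (vertical) principal components of the centred log2 intensities, with tumors with an integration at *Dnm3* in red and the others in blue. SS 18 (27.9), SS 19 (11.2) and SS 23 (55.7) are on the positive side of component 1 together with SS 20 (23.2), SS 22 (49.3) and SS 33 (4.63), which have no integration at *Dnm3*.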

How the data were processed

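Total RNA of each sample was hybridised to a GeneChip mouse array. For each of 45141 probe sets on 53 arrays the authors deposited an intensity, which is linear. The submitters' notes name MAS5 and the paper's methods name GeneSpring, and the summary step is not settled by the files. The arrays count no molecules, so their number limits the precision. In the tumor comparisons p-values measure the spread between these tumors, and in the sarcoma lines the spread between replicate arrays of a line. The intensities were put on the log2 scale with no further scaling and no pseudocount. Control probe sets (104) were left out, and probe sets above 11.7, the median over arrays of each array's percentile 20, in at least 3 tumor samples were kept. Probe sets with 1 symbol (28898) were named through the platform annotation, 28689 of them updated by gene ID. Those with several symbols (551) or none (15588) named no gene, and a gene took its brightest probe set.

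Fits used lmFit and eBayes with trend (limma 3.58.1, R 4.3.3), with Benjamini-Hochberg adjustment over all probe sets tested. The design had 9 other tumors. SS 24 and SS 29 were averaged after their arrays were found to differ as little as replicates, and the design with 12 arrays is given as an alternative. Single values were compared by an exact permutation test, two-sided. SS40 and SS64 were fitted on their own. In SS64 the deviations of arrays with the same replicate number correlated at 0.221 to 0.344, and in SS40 at -0.28 to 0.459. The labels give no pairing, so the numbers entered only as a block in alternative fits. The steps were tested on simulated data. Alternatives were another normalization, floor, filter and variance model, a joint fit with SS214, the methods' t-test, the mean over probe sets, tumors left out, the *Gapdh* ratio as a covariate and, chosen after seeing the data, SS 24 and SS 29 apart or left out.

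Genes named are *Dnm3*, *Dnm3os* and their neighbours, the study's candidate targets and chemokines, *Dnm3os* regulators, genes at integrations, the 12 largest differences each way among genes whose groups do not overlap, and up to 4 members of other lists. Not all are printed. The groups, members and lists were chosen with earlier results of these data known. MicroRNA levels and proteins are not analysed here. Python 3.11.15 and matplotlib drew the figures.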

Additional observations from a re-analysis of the deposited data

Results flagged for a closer look

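Each level was examined for a tumor far from the others among the 8 other SS tumor samples, by the gap to its nearest neighbour as a share of the group's range (critical value 0.526). Of 30 values tested, 3 passed. Chance flags about 1 in 20 groups that are taken without regard to their values. Of the 30, 24 were the genes named for their separation, which was judged with these same tumors, so that rate does not apply to them. *Tshz2* in SS 30 had a share of 0.543, at 9.35, with the nearest tumor at 8.51. *Angpt2* in SS 30 had a share of 0.533, at 7.63, with the nearest tumor at 6.49. One probe set of *Dnm3* that did not pass the filter on low values had a share of 0.677 in SS 5, at 3.48, with the nearest tumor at 3.26. SS 30 is 1 of the tumors without an integration at *Dnm3*, and its *Gapdh* ratio (1.43) was the highest of the SS tumors.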

How the results depend on the processing

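None of the 24 genes named for their separation was called or changed sign under any of the 13 alternatives, which says little of their stability, since they were chosen for separation and none was called to begin with. Their size moved by over 1.5 times in 9 of 312 values. With the mean over probe sets *Tspan8* had 0.575, *Pfkfb3* 0.681, *Megf11* -0.793, *Neurog3* -0.703, *Slc12a5* -0.385 and *Nhsl1* -0.234. With the *Gapdh* ratio as a covariate *Jchain* had 2.36 and *Angpt2* -1.32, and without SS 18 *Megf11* had -0.815. For all genes, the count called was 0 except without SS 23 (2), so leaving out 1 of the 3 tumors gave 0 to 2, and under the methods' t-test (109, unadjusted). The lowest adjusted p over all probe sets was 0.00272 without SS 19 and 0.0141 with intensities raised to the floor, with 0 genes called by their brightest probe set in either. Leaving out 1 of the 3 tumors gave 336 to 468 genes with both remaining tumors higher and 256 to 414 lower, since fewer tumors separate more easily. The mean correlation among the 3 tumors was 0.137 to 0.208 with 1 left out, 0.197 with SS 24 and SS 29 as separate tumors and 0.0526 without both. The difference of *Dnm3os* was -0.557 to 0.189 with 1 tumor left out, positive without SS 19, and 0.269 as the mean over its probe sets. That of *Dnm3* was -0.199 to 0.0422, positive without SS 23. The cause was not tested. With the replicate block in both lines, the median of the genes lowered by *miR-214* was 0.152 in the tumors, and with the block in SS64 alone 65 genes were lowered in both lines, with a median of 0.151. With 3 tumors in 1 group, only differences well above the spread between tumors can be called.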
